A study of Mus musculus with 3 samples.

Results

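Integrins and laminins were described in RNA-seq data from mouse melan-a cells. Genes were chosen by symbol alone, as the integrin alpha genes, the integrin beta genes *Itgb1* to *Itgb8* and the laminin alpha, beta and gamma chain genes. This gave 37 of the 22698 genes in the files, namely 18 integrin alpha genes, 8 integrin beta genes and 11 laminin chain genes. Melan-a is an immortalized, pigmented melanocyte line on the C57BL/6J background, and its labels trace it to mice null for Ink4a and ARF. All 3 samples, labelled as replicates 1, 3 and 4, were untreated cultures of this line in RPMI 1640 with 10% fetal bovine serum, 200 nM of the phorbol ester TPA and 200 pM cholera toxin at 37°C. TPA activates protein kinase C and cholera toxin raises cyclic AMP, so every value below comes from cells under both agents. There was 1 condition and no control group, so the comparisons are between genes within a library and between replicates. Whether the replicates were separate cultures is not said beyond the word bioreplicate, and their spread may be partly technical.

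Integrins are receptors that link the cell to the extracellular matrix. Each is a heterodimer of 1 alpha and 1 beta chain, and the pairing sets which ligand is bound. Laminins are trimers of an alpha, a beta and a gamma chain, named by the numbers of their chains. They are the main adhesive proteins of basement membranes. In skin, melanocytes sit on the basement membrane between epidermis and dermis, where laminin-332 and laminin-511 are made mostly by keratinocytes. Integrins that contain α3, α6 or α7 are the classical laminin receptors.

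Values are FPKM, fragments scaled for gene length and for library size, so levels of different genes can be set side by side within a library. Such comparisons are approximate, since the gene length used is not given and replicates differed with GC content (below). A gene was called present at 1 FPKM or more in each of the 3 replicates. Of the 37 members, 18 were present (48.6%), against 10011 of all 22698 genes (44.1%), so as a whole the members were present about as often as genes in general. By family, 10 of 18 alpha genes, 4 of 8 beta genes and 4 of 11 laminin chain genes were present. Of the others, 12 had means above 0 but under 0.2 FPKM, and 4 were listed at 0 in every replicate. Scaled library sizes were estimated from the steps between low values at 53800000, 47000000 and 66300000 reads in replicates 1, 3 and 4. At those sizes 3 reads on a member came to no more than 0.023 FPKM, and 24 of the 37 members were above that level for their own length in all 3 replicates. Values are rounded to 2 decimals, so a listed 0 does not exclude a few reads on a long gene.

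The melanocyte label was checked against 8 marker genes, of which 7 were present, from *Mitf* with a mean of 22.1 FPKM to *Tyrp1* with 3144 FPKM. The receptor tyrosine kinase gene *Kit* was the exception, with a mean of 0.68 FPKM. Of 33 markers of keratinocytes, fibroblasts, endothelial cells, leukocytes, platelets and muscle, 2 were present, *Col1a1* at 1.54 FPKM and *Lyz2* at 12.9 FPKM. The defining leukocyte gene *Ptprc* was listed at 0 in every replicate, as were the keratinocyte genes *Trp63*, *Krt1* and *Dsg3*. Of the 33 markers, 10 were listed at 0. Summed over a list, the keratinocyte markers came to 0.38 to 0.72 FPKM, the endothelial markers to 0.04 to 0.06, the platelet markers to 0.02 to 0.03 and the muscle markers to 0.10 to 0.29. The fibroblast markers came to 1.62 to 1.97 FPKM, mostly *Col1a1*, and the leukocyte markers to 13.27 to 15.14 FPKM, mostly *Lyz2*. What part such cells may have in the members' levels was not tested. *Cdkn2a*, the gene of both Ink4a and ARF, read 19.24, 16.49 and 24.32 FPKM in replicates 1, 3 and 4. With 1 value per gene, reads on exons outside a deletion cannot be told from reads on the whole gene, so this value does not check the label.

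The promoters of 4 beta chain genes, of an integrin and of laminins, are shown because they include members at high levels and a member near 0. No window was found for *Lama4*, *Lamc1* or *Itga6*. *Itgb1* was the highest of all 37 members, *Lamb1* and *Lamb2* are the laminin beta chains that were present, and *Lamb3* is the laminin beta chain that was not. Each window runs from 250 bases before to 50 bases after a RefSeq transcription start and was found at a single exact match in mm9, at chr8:131209304-131209603 for *Itgb1*, chr12:31949908-31950207 for *Lamb1*, chr9:108381943-108382242 for *Lamb2* and chr1:195127938-195128237 for *Lamb3*, all on the plus strand. Capitals mark the E-box forms CACGTG and CATGTG, which MITF can bind, and the TFAP2 form GCCNNNGGC, on either strand.
Itgb1: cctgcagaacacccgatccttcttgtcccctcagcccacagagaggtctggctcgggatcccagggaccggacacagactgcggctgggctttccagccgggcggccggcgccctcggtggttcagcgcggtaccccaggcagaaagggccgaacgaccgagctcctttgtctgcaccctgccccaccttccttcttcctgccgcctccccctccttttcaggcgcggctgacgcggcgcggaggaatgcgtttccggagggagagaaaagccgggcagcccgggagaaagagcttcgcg
Lamb1: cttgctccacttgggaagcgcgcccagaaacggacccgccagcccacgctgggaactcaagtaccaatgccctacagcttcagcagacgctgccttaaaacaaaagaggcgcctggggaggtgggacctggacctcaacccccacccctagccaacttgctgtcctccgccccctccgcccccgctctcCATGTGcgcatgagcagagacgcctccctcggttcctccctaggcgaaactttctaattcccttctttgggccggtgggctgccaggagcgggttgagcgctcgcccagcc
Lamb2: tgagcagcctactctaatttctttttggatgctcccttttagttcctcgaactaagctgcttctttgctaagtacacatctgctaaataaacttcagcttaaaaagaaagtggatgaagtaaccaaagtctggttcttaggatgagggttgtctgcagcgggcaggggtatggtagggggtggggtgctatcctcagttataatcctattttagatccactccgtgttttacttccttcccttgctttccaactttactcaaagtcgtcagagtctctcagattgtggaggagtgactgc
Lamb3: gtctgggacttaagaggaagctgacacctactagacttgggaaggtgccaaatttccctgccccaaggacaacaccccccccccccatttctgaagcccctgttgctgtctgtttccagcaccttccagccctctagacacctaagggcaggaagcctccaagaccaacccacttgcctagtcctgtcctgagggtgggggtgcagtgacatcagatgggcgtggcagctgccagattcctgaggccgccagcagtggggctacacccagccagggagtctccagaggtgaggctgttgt

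The *Itgb1* window held 27 CpG dinucleotides, *Lamb1* held 18, *Lamb2* held 4 and *Lamb3* held 2. High CpG density thus went with a high level in *Itgb1* and *Lamb1*, while *Lamb2*, at 37.4 FPKM, had a CpG-poor window close to that of *Lamb3*. The single match to the marked forms in these windows was CATGTG in *Lamb1*, 61 bases before the start. The TFAP2 form searched is stricter than GCCNNNGG, the TFAP2A consensus in the paper's methods. Matches to that shorter form alone were neither marked nor counted, and some of the printed windows hold it. RefSeq windows were found for 23 of the 37 members. Over the 12 that were present the median was 15.5 CpG, and over the 11 that were not it was 6, with 7 over all 32851 windows. The groups overlapped, with 4 (*Lamb2*) to 27 (*Itgb1*) in present members and 1 (*Lama2*) to 24 (*Lama5*) in the others. The TFAP2 form occurred in 3 of the 12 windows of present members (*Itga8*, *Itga4* and *Itga2*) and in 1 of the other 11 (*Itga11*), against 16.6% of all windows. An E-box form occurred in 1 of the 12 (*Lamb1*) and in 2 of the 11 (*Itgb7* and *Itgb6*), against 20.4% of all windows. The *Itga9* window lies 105002 bases inside the gene as Ensembl annotates it. A match is only a match of letters, and no window says whether a factor is bound there.

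*Itgb1*, which encodes the β1 chain shared by 12 known integrins, stood far above every other member. The gene spans 131209554 to 131257100 of chromosome 8 in mm9. Replicates 1, 3 and 4 gave 449.09, 414.02 and 495.31 FPKM, a mean of 453 ± 40.8 FPKM (SD, n = 3). This was rank 84 of all 22698 genes. All 3 values were above every value of every other member, and *Itgb1* held 83.9% ± 3.6 of the summed FPKM of the 8 beta genes (SD, n = 3).

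The next beta gene was *Itgb5*, whose product pairs with αV in a receptor for vitronectin. Its values were 58.18, 66.27 and 41.08 FPKM in replicates 1, 3 and 4, and its mean was 8.21 times lower than that of *Itgb1*. *Itgb3*, which encodes the other classical vitronectin receptor chain, followed with 29.00, 29.63 and 24.71 FPKM. The lowest *Itgb5* value was above the highest *Itgb3* value, so their order held in all 3 libraries. *Itgb4*, the partner of α6 in the hemidesmosomes of keratinocytes, was lower again at 2.55, 2.94 and 2.21 FPKM. Its mean of 2.57 ± 0.37 FPKM (SD, n = 3) was 10.8 times below that of *Itgb3*, and the ranges of the 4 present beta genes did not overlap.

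The other 4 beta genes were under 1 FPKM in every replicate. *Itgb8*, whose product pairs with αV in a receptor that activates latent TGF-β, was the highest of them at 0.28, 0.27 and 0.31 FPKM. *Itgb2*, the common chain of the leukocyte integrins, had between 0.04 and 0.09 FPKM. *Itgb7*, the chain of gut-homing lymphocytes, had 0.01, 0.01 and 0.06 FPKM. *Itgb6*, an epithelial chain, was above 0 only in replicate 3, at 0.01 FPKM.

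Among the alpha genes the level was spread more evenly. *Itga6*, which encodes the laminin-binding chain α6, led with 78.84, 75.10 and 71.21 FPKM in replicates 1, 3 and 4, a mean of 75.1 ± 3.8 FPKM (SD, n = 3). The gene spans 71583673 to 71696473 of chromosome 2, which also carries *Itgav* (83564554 to 83647073), *Itga8* (12028259 to 12223547) and *Itga4* (79095583 to 79173280). Its share of the summed FPKM of the alpha genes was 27.1% ± 0.8 (SD, n = 3), and its lowest value was above the highest value of any other alpha gene.

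*Itga3*, the chain of another laminin receptor, came second with 44.05, 54.39 and 31.93 FPKM in replicates 1, 3 and 4. It exceeded the genes below it in replicates 1 and 3 and not in replicate 4, where *Itgav*, *Itga8* and *Itga4* were higher. A group of 4 genes with nearly equal means followed. *Itgav* encodes αV, the chain of the vitronectin receptors, and read 33.10, 29.04 and 36.08 FPKM. *Itga8* encodes the chain of the nephronectin receptor and read 32.45, 28.65 and 35.31 FPKM. *Itga5*, the chain of the classical fibronectin receptor, had 32.78, 38.73 and 24.27 FPKM. *Itga4*, whose product binds VCAM-1 and fibronectin, had 29.28, 25.67 and 37.10 FPKM. The means of these 4 genes ran from 30.7 to 32.7 FPKM and their ranges overlapped, so their order is not resolved. *Itgav* was nonetheless above *Itga8* in each library, by 0.02 to 0.03 on the log2 scale.

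*Itga7*, the laminin receptor chain best known from muscle, had 19.09, 23.52 and 15.10 FPKM, with no value as high as the lowest of *Itga4*. The collagen receptor genes *Itga2* and *Itga1* were lower, at 5.11, 3.74 and 6.43 FPKM and at 3.66, 3.20 and 4.53 FPKM. *Itga2* exceeded *Itga1* in every library, although their ranges overlapped. The genes lie close together on the minus strand of chromosome 13, *Itga2* from 115626124 to 115722249 and *Itga1* from 115748287 to 115892172. *Itga9*, the chain of a tenascin-C and osteopontin receptor, closed the present group with 3.33, 3.34 and 2.61 FPKM. Its range overlapped that of *Itga1*, which was lower than *Itga9* in replicate 3.

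The other 8 alpha genes were near or at 0. *Itga10*, a collagen receptor chain of cartilage, was the highest of them at 0.10, 0.07 and 0.21 FPKM. *Itga2b* of platelets had 0.01, 0.01 and 0.03 FPKM, and *Itgae* of intraepithelial lymphocytes had 0.01, 0 and 0.02 FPKM. *Itga11* and *Itgad* were above 0 only in replicate 4, at 0.01 FPKM each. *Itgal*, *Itgam* and *Itgax*, which with *Itgad* encode the partners of the leukocyte β2 chain, were listed at 0 in all 3 replicates. *Itgam*, *Itgax* and *Itgad* share a stretch of chromosome 7 from 135206154 to 135349015. The alpha chains particular to leukocytes and platelets thus had at most 0.03 FPKM in any library. *Itga4*, which leukocytes also use, with *Itgb7* as a partner, was not low. The leukocyte marker list was mixed, with *Ptprc* and *Cd3e* at 0, *Lyz2* at 12.9 FPKM and *Cd68* at 1.20, 0.76 and 1.60 FPKM in replicates 1, 3 and 4, and no platelet marker exceeded 0.03 FPKM.

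**Figure D1:**
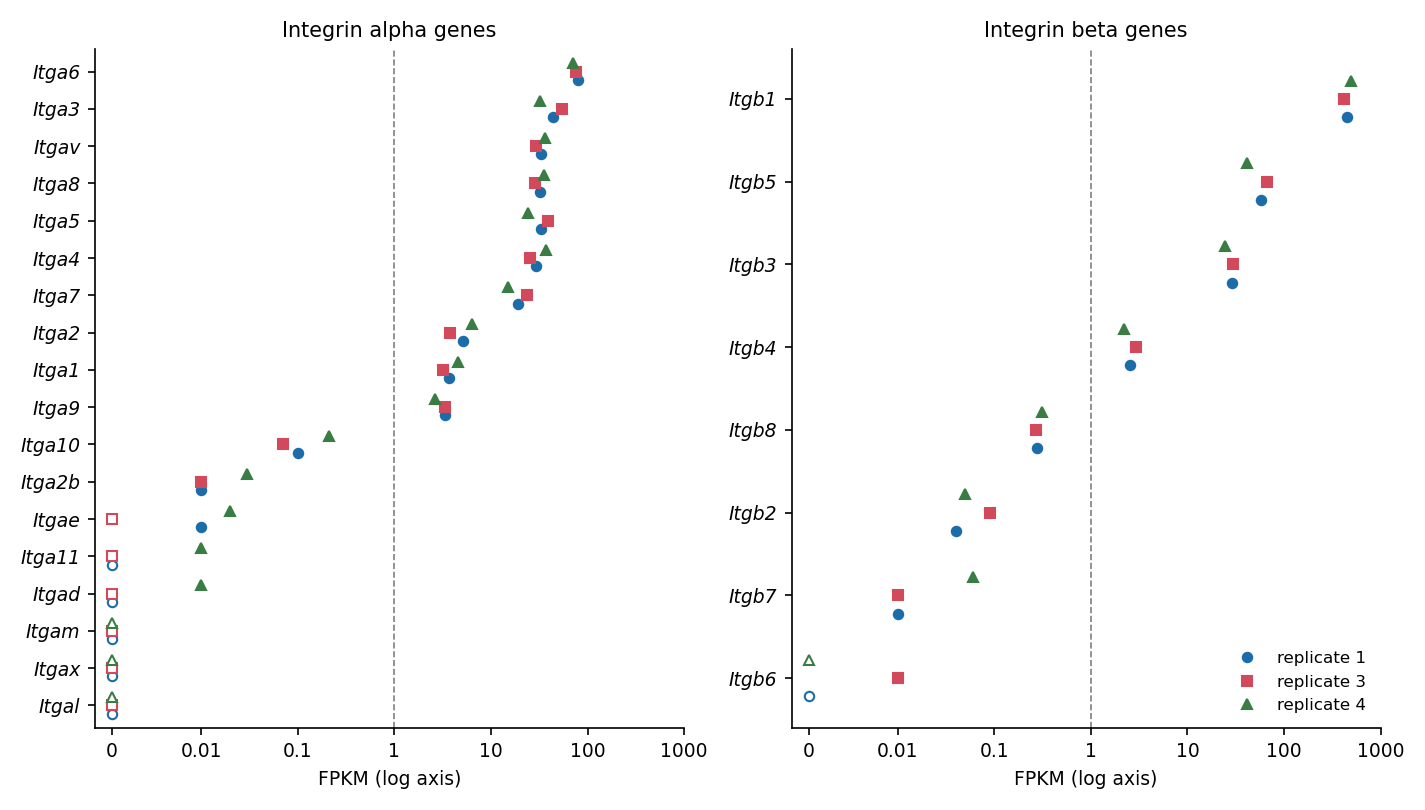
FPKM of the 18 integrin alpha genes and 8 integrin beta genes on a log axis, with 1 point per replicate. Open points at the left edge are listed at 0, and the dashed line is 1 FPKM. *Itgb1* lies between 414.02 and 495.31 FPKM, right of all other genes, and 10 alpha genes and 4 beta genes lie right of the line.

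Laminin chains fell into a small present group and a large group near 0. *Lamc1*, which encodes the γ1 chain found in most laminins, read 105.78, 105.15 and 86.72 FPKM in replicates 1, 3 and 4. Its share of the summed FPKM of the laminin chains was 32.2% ± 2.2 (SD, n = 3). *Lama4*, the short α4 chain known from vessel and nerve basement membranes, read 93.17, 92.95 and 103.56 FPKM. *Lamc1* was above *Lama4* in replicates 1 and 3 and below it in replicate 4, and their means of 99.2 ± 10.8 and 96.6 ± 6.1 FPKM (SD, n = 3) were not separated. *Lamb1*, the widespread β1 chain, had 74.16, 74.47 and 69.52 FPKM, below every *Lama4* value. *Lamb2*, the β2 chain of synapses and kidney glomeruli, had 39.97, 41.12 and 31.02 FPKM, and the mean of *Lamb1* was 1.95 times that of *Lamb2*. In mm9, *Lamc1* spans 155066052 to 155179916 of chromosome 1, *Lama4* 38685321 to 38829994 of chromosome 10, *Lamb1* 31950099 to 32014509 of chromosome 12 and *Lamb2* 108382193 to 108392861 of chromosome 9.

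The other alpha chains gave almost no signal. *Lama5*, the α5 chain of laminin-511 and laminin-521, had 0.63, 0.72 and 0.64 FPKM. *Lama3*, the α3 chain of laminin-332, had 0.01, 0.02 and 0.02 FPKM. *Lama1* was above 0 only in replicate 1, at 0.01 FPKM, and *Lama2*, the α2 chain of muscle, was listed at 0 throughout. The mean of *Lama4* was thus far above that of each other alpha chain, with no overlap. *Lamb3*, the β3 chain of laminin-332, had 0, 0.02 and 0.01 FPKM. *Lamc3* was above 0 only in replicate 1, at 0.01 FPKM. Low as it was, *Lama5* stood well above the level of 3 reads, at about 387 estimated reads in replicate 1.

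**Figure D2:**
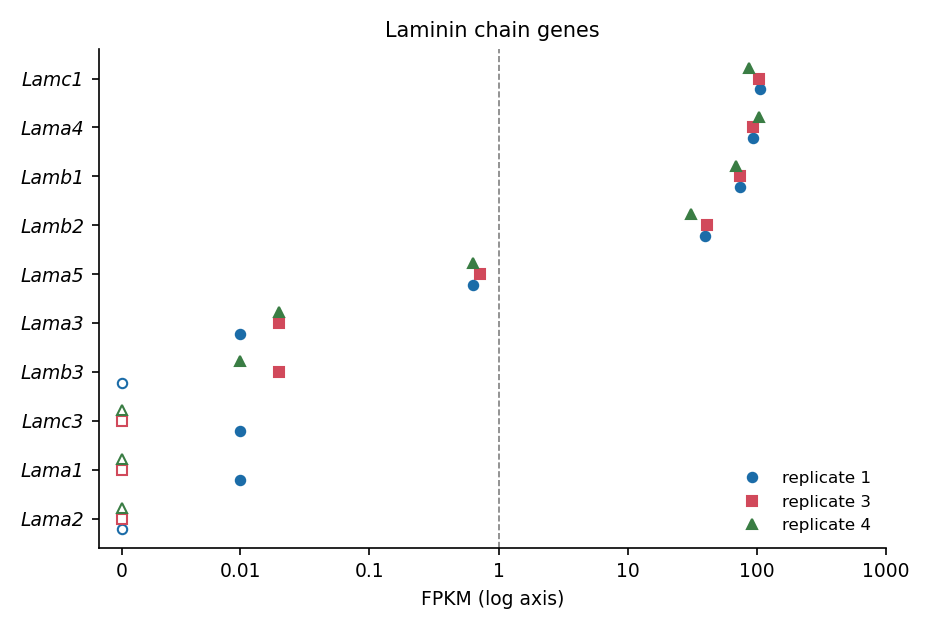
FPKM of laminin chain genes on a log axis, with 1 point per replicate. Open points at the left edge are listed at 0, and the dashed line is 1 FPKM. *Lamc1*, *Lama4*, *Lamb1* and *Lamb2* lie between 31.02 and 105.78 FPKM, and *Lama5* lies just left of the line.

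Which receptors these levels permit was read from a list of 24 known integrin heterodimers. For 13 of them both chains were present. By mean, the alpha gene was the lower chain in 11 of the 13, and the exceptions were αVβ3 and α6β4. The list also holds 11 dimers with a chain under 1 FPKM in at least 1 replicate, 6 of them the leukocyte dimers of β2 and β7. A transcript level says nothing of how much protein is made or which chains meet, so these are upper lists of candidates.

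Among the laminin receptors, α6β1 had the highest lower chain, *Itga6* at 75.1 FPKM, followed by α3β1 with *Itga3* at 43.5 ± 11.2 FPKM and α7β1 with *Itga7* at 19.2 ± 4.2 FPKM (SD, n = 3). For α6β4 the lower chain was *Itgb4* at 2.57 FPKM, and *Itga6* exceeded *Itgb4* 29.6-fold (SD 3.5, n = 3). Receptors that recognise the RGD motif of fibronectin and vitronectin were represented by αVβ1, αVβ5, α8β1, α5β1 and αVβ3, with lower chains from 27.6 to 32.7 FPKM. For αVβ3 the lower chain was *Itgb3* in replicates 1 and 4 and *Itgav* in replicate 3. The chains were nearly level in replicate 3, at 29.63 and 29.04 FPKM, and furthest apart in replicate 4, at 24.71 and 36.08 FPKM. αVβ8, αVβ6 and the platelet receptor αIIbβ3 each lacked a present chain. The collagen receptors α2β1 and α1β1 were limited to 5.09 and 3.80 FPKM, and α10β1 and α11β1 had no present alpha gene. For α4β1 and α9β1 the lower chains were *Itga4* at 30.7 FPKM and *Itga9* at 3.09 FPKM.

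In FPKM, the β1 gene also exceeded its partners together. *Itgb1* divided by the sum of its 12 alpha partners was 1.59, 1.45 and 1.87 in replicates 1, 3 and 4, a mean of 1.64 ± 0.21 (SD, n = 3). The ratio was above 1 in 3 of 3 libraries, although αV, α6 and α4 can pair with other beta chains and were counted in full. Without *Itgav* it was 1.86 ± 0.28 (SD, n = 3). Both ratios depend on the gene lengths used, which are not given. Joined exons came to 4081 bases for *Itgb1* and to 4214 (*Itga2*) to 13978 (*Itga4*) for its partners. The part of length in the ratios was not tested. *Itgb3* and *Itgb5* together exceeded *Itgav* 2.63-fold, 3.30-fold and 1.82-fold in replicates 1, 3 and 4. An exact paired permutation test over 3 replicates cannot go below a two-sided p = 0.25, so no p is given for these ratios.

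**Figure D3:**
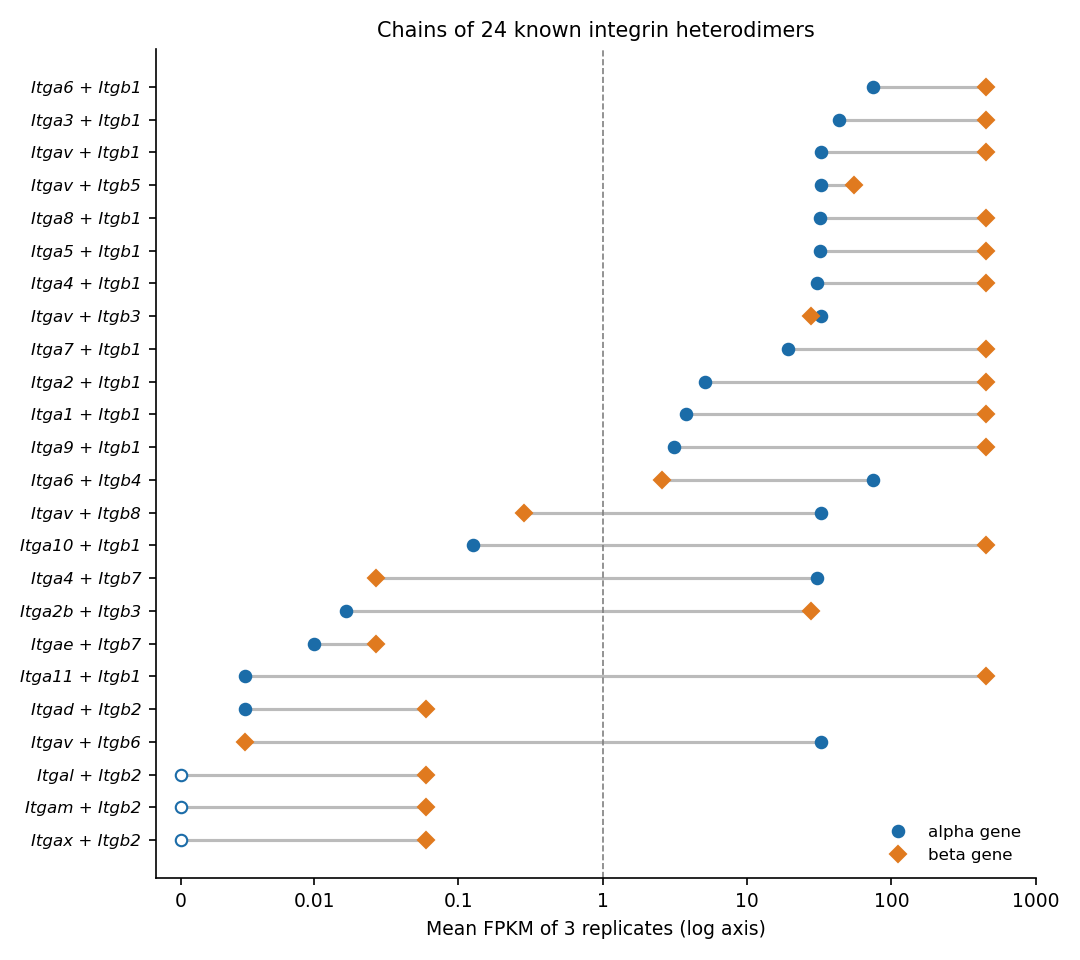
Mean FPKM of the alpha gene (circle) and the beta gene (diamond) of 24 known integrin heterodimers on a log axis, ordered by the lower of both chains. Open circles are listed at 0, and the dashed line is 1 FPKM. In 13 dimers both symbols lie right of the line, from *Itga6* with *Itgb1* down to *Itga6* with *Itgb4*.

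Of 14 known laminin trimers, 2 had all chains present, laminin-411 and laminin-421. Both contain *Lama4* and *Lamc1* and differ in the beta chain. In laminin-411 the lowest chain was *Lamb1* at 72.7 ± 2.8 FPKM, and in laminin-421 it was *Lamb2* at 37.4 ± 5.5 FPKM (SD, n = 3). *Lamb1* and *Lamb2* together were 1.22, 1.24 and 0.97 times *Lama4* in replicates 1, 3 and 4, and *Lamc1* was 1.14, 1.13 and 0.84 times *Lama4*. Both ratios were above 1 in replicates 1 and 3 and below 1 in replicate 4, so the alpha, summed beta and gamma levels could not be ranked. Laminin-511 and laminin-521 lacked only *Lama5*, with 0.66 ± 0.05 FPKM (SD, n = 3). At a threshold of 0.5 FPKM both would count as present, which makes 4 trimers. In laminin-332, the keratinocyte laminin, *Lama3* and *Lamb3* had at most 0.02 FPKM in any replicate.

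**Figure D4:**
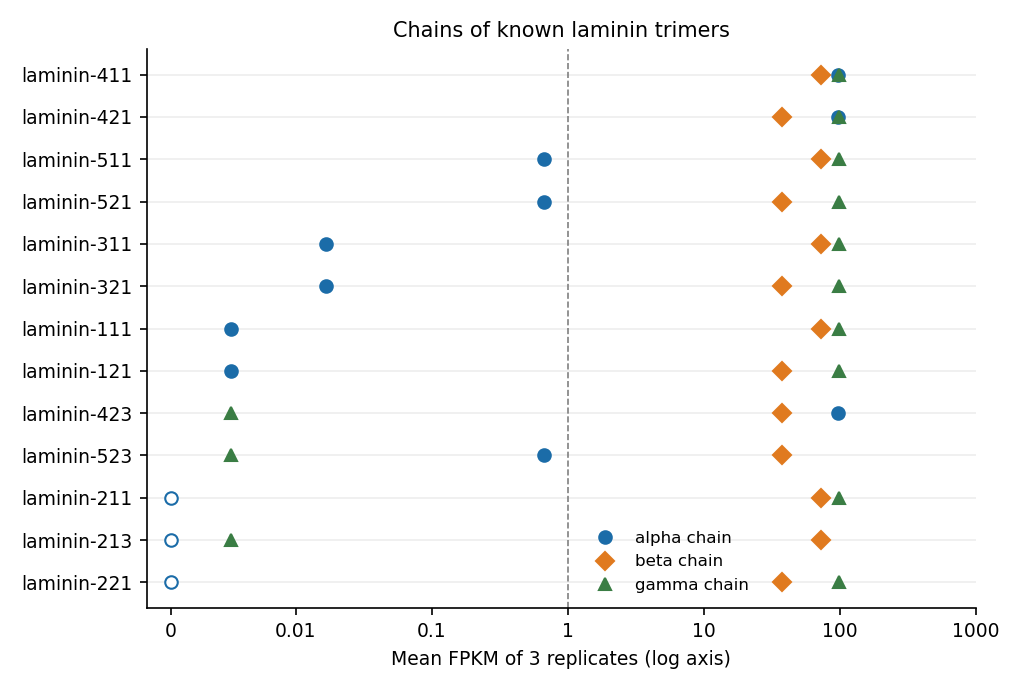
Mean FPKM of the alpha (circle), beta (diamond) and gamma chain (triangle) of known laminin trimers on a log axis, ordered by the lowest chain. Open circles are listed at 0, and the dashed line is 1 FPKM. Only laminin-411 and laminin-421 have every symbol right of the line, and laminin-511 and laminin-521 lack it for the alpha chain alone.

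Receptors and laminins were then set against each other. A list of 15 pairs joined α3β1, α6β1, α6β4 and α7β1 with the trimers each is known to bind best among laminin-111, laminin-211, laminin-221, laminin-332, laminin-511 and laminin-521. All chains were present in 0 of the 15 pairs. None of the trimers in this list had all chains present, so this count followed from the trimers alone. In every pair the lowest chain was a laminin chain, *Lama5* in 8 pairs, *Lamb3* in 3, and *Lama1* or *Lama2* in the other 4. The receptor chains themselves were all present. With a threshold of 0.5 FPKM, the 8 pairs limited by *Lama5* counted as present. The α6β1 receptor is also known to bind laminin-411. Adding it with laminin-411 and laminin-421, a choice made after the values were seen, gave 2 pairs, each limited by the laminin beta chain. *Mcam*, which encodes another receptor reported for laminin-411, was looked up after the values were seen and had 396.3, 446.74 and 393.71 FPKM. Laminin protein, whether made by the cells or brought by serum, was not measured.

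Of 16 genes of other basement membrane proteins and laminin receptors, 10 were present, against 44.1% of all genes, a difference that was not tested. The highest was *Dag1*, the gene of the laminin receptor dystroglycan, at 536 ± 102 FPKM (SD, n = 3). *Col4a2* and *Col4a1*, the chains of the main collagen IV network, had means of 368 and 243 FPKM, and *Hspg2*, the gene of perlecan, had 320 FPKM. *Agrn*, which encodes the laminin-binding proteoglycan agrin, had 145 FPKM. Nidogens link laminin γ1 to collagen IV, and their genes differed, with *Nid2* at 27.1 and *Nid1* at 1.78 FPKM. *Bcam*, the gene of a receptor for laminin α5, had 5.47 FPKM. The hemidesmosome and anchoring fibril collagens *Col17a1* and *Col7a1* were not present, at 0.23 and 0.30 FPKM.

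Of 21 genes of ligands of the other integrins, 9 were present, a share close to the 44.1% of all genes. *Fn1*, the gene of fibronectin and so the ligand of α5β1, had 724.93, 663.08 and 695.47 FPKM, above *Itgb1* in each library. *Npnt*, which encodes the α8β1 ligand nephronectin, had 60.36, 54.44 and 59.03 FPKM, so receptor and ligand of this pair were both present. *Mfge8*, a ligand of αVβ3 and αVβ5, had a mean of 130 FPKM. *Vtn*, the gene of vitronectin, was listed at 0 in every replicate. *Vcam1*, the cell surface ligand of α4β1, had 0.05 to 0.10 FPKM beside *Itga4* at 30.7 FPKM, although fibronectin is a ligand of that receptor too. *Spp1*, the gene of the α9β1 ligand osteopontin, had 81.03, 51.68 and 111.47 FPKM in replicates 1, 3 and 4. *Tnc*, which encodes the α9β1 ligand tenascin-C, was not present, with a mean of 0.66 FPKM.

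Of 33 genes of adaptors and membrane partners of integrins, 28 were present, against 44.1% of all genes, a difference that was not tested. *Actn4* with 669 FPKM and *Flna* with 358 FPKM, which encode actin crosslinkers, and the tetraspanin gene *Cd151* with 514 FPKM, a partner of α3β1 and α6β1, were the highest. Among paralogs of the integrin activators, *Tln1* had 199 FPKM and *Tln2* had 24.13, 26.78 and 20.95 FPKM. *Fermt2* of the kindlins had 93.9 FPKM, while *Fermt3* of blood cells had 0.06 FPKM and the epithelial *Fermt1* was listed at 0. *Ilk*, *Parva* and *Lims1*, whose products form a complex at the β1 tail, had 190, 88.8 and 33.2 FPKM. *Lims2*, the paralog of *Lims1*, was above it in each library, at 52.29, 68.95 and 52.61 FPKM in replicates 1, 3 and 4.

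Replicates differed by amounts that followed base composition. Over the 18 present members, the SD between replicates of log2(FPKM + 1) had a median of 0.16, against 0.14 over all 10011 present genes. Replicate 3 was above replicate 4 for 11 of the 18 members (61.1%), against 51.3% of all present genes. All 9 members with a GC content of 51.6% to 59.4% in their exons were higher in replicate 3, by 0.25 to 0.75 on the log2 scale, with *Itga3* the most and *Itgb3* the least. Of the 9 members with 41.5% to 49.2%, 7 were lower in replicate 3, and the exceptions were *Itga6* and *Lamb1*. The lowest ratio was that of *Itga2*, at -0.65. Across the 18 members Spearman's rho between GC content and this ratio was 0.85, and across 10007 genes it was 0.78. These are correlations over genes that share libraries, and no p is given.

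With the trend on GC content removed from each replicate, the median SD of the members was 0.094, against 0.092 over all genes. Replicate 3 was then higher for 13 of 18 members (72.2%), against 50.6% of all present genes. The median log2 ratio of the members went from 0.18 to 0.14, against 0.02 and 0.00 over all genes. Rescaling each library to the same sum moved it to 0.04 for these 18 members, and to -0.11 over all genes. Some orders that crossed between libraries, such as *Itga3* against *Itgav* or *Itga5* against *Itga4*, joined a GC-rich with a GC-poor gene. Others joined GC-poor genes. *Itga4* (41.5% GC) was below *Itgav* (43.4%) and *Itga8* (42.6%) in replicates 1 and 3 and above both in replicate 4. The part of GC content in these crossings was not tested. Removing the trend moved no member's mean by more than the SD between its replicates. The trend was fitted to each replicate's ratio to the mean of the replicates, so means change little by construction.

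**Figure D5:**
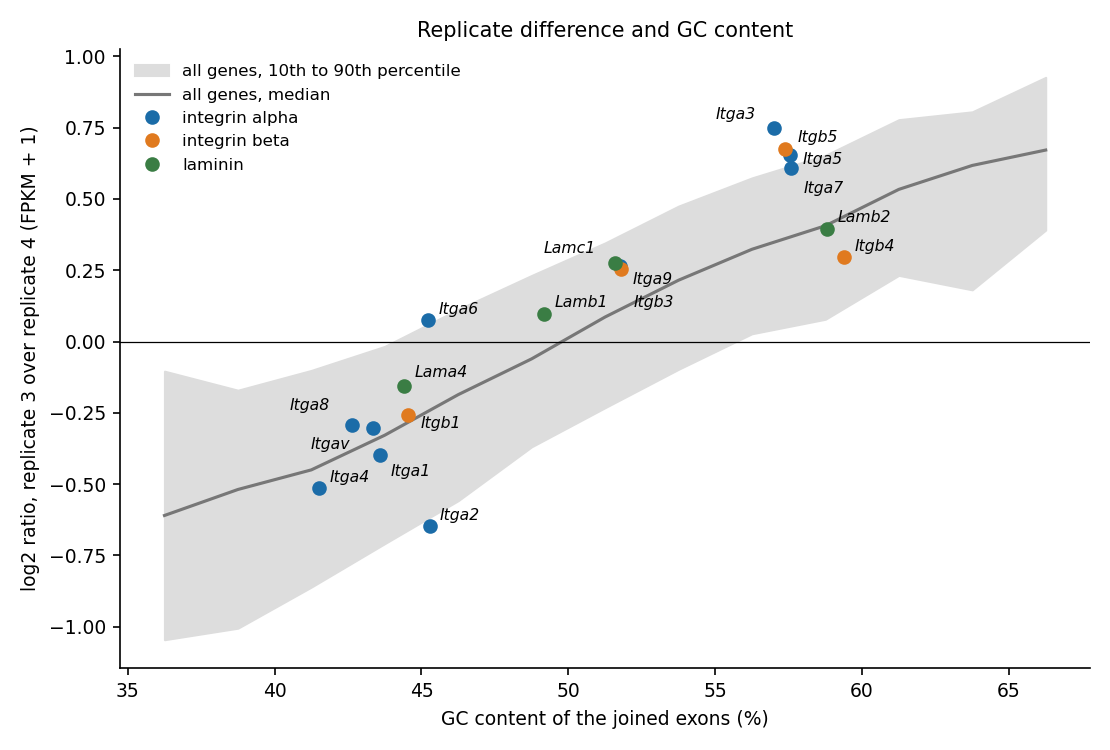
GC content of the joined exons (%) against the log2 ratio of replicate 3 to replicate 4, from FPKM + 1, for the 18 present integrin and laminin genes. The grey line and band give the median and the 10th to 90th percentile of all present genes in bins of GC content that hold 20 genes or more. Members with 51.6% GC or more all lie above 0, and most others lie below.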

How the data were processed

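RNA-seq libraries of 3 melan-a replicates were made with a stranded mRNA kit and sequenced on an Illumina HiSeq in 3 lanes each. Per the paper's methods and the submitters' processing notes, reads were trimmed by 10 bases at the 5' end, aligned to mm9 with STAR 2.3.0e, freed of rRNA and counted with HTSeq 0.5.3p3 on Ensembl release 67. The authors deposited FPKM values with TMM scaling, for which the notes name edgeR, written with 2 decimals. The step from counts to FPKM and the gene length used are not given in the sources used here. No count model was applied to these values, and with 1 condition no test between groups was possible. Means, SDs and ratios per replicate are descriptions.

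Symbols, positions, exon lengths and GC content were read from GENCODE models on mm9 (Ensembl release 65), which holds 22324 of the 22698 genes and all 37 members. A gene was called present at 1 FPKM in each replicate. Neighbours in an order of levels were said to differ where their 3 values did not overlap. Library sizes were estimated from short genes with 1 transcript, whose FPKM times length gives whole reads, to a mean distance of 0.05 to 0.06 reads. They cover reads after the authors' scaling. GC trends were removed with a lowess fit of span 0.3. Lists of dimers, trimers, partners and markers came from general knowledge. Members and lists were chosen with earlier results of these data known. Members at 1 FPKM or more are given with each value, and the others by name, apart from 1 that is not reported here. Of the partner lists the 3 highest genes and those that complete a pair were to be named. Other partner genes, *Cdkn2a*, *Mcam*, the printed promoters and the ratios to *Lama4*, *Itgav* and *Itgb4* were chosen after their values were seen. Promoter windows came from RefSeq (GRCm38.p6) and were placed in mm9 by exact match.

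The alternatives were thresholds of 0.5 and 5 FPKM, the mean in place of every replicate, the median, rescaled libraries, a pseudocount of 0.1 in place of 1, no filter, GC trends removed and each replicate left out. The estimation of library size and the removal of GC trends were checked on simulated data. Trends were fitted with statsmodels 0.14.6 under Python 3.11.15, tables were handled with pandas 2.3.3, and plots were drawn with matplotlib 3.10.9.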

Additional observations from a re-analysis of the deposited data

How the results depend on the processing

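Leaving out each replicate in turn changed no count of present integrins, laminins, heterodimers or trimers. The levels of all 37 members stayed within their SD when a replicate was left out, the median was used or GC trends were removed. With 3 replicates, leaving a replicate out or taking the median cannot move a mean by more than the SD. GC trends were fitted to ratios to the replicate mean, so means change little by construction. These results therefore do not test how stable the levels are. The counts depended on the threshold. With 5 FPKM, 7 alpha genes, 3 beta genes and 9 heterodimers counted as present, against 10, 4 and 13 with 1 FPKM. The count of laminin chain genes rose with 0.5 FPKM, since *Lama5* lies between 0.5 and 1 FPKM. With 0.5 FPKM, and with each library rescaled to sum to 1000000, 4 trimers and 8 receptor and laminin pairs counted as present. Rescaling raises every value, since the libraries sum to less. Adding α6β1 with laminin-411 and laminin-421, chosen after seeing the data, gave 2 pairs. With 5 FPKM, 1 marker of another cell type remained, *Lyz2*. The median SD of the members was 0.0942 with GC trends removed and 0.0725 over all members with no filter. The median log2 ratio of replicates 3 and 4 was 0 with no filter, where members at or near 0 enter. After rescaling, the levels of 30 of 37 members moved by more than their SD, which is a change of unit. No paired analysis was possible because there is 1 group of samples. Depth limits the members with 0 to 0.02 FPKM, which rest on a few reads, and rounding to 2 decimals limits them further.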
